A study of Mus musculus with 4 samples.

Results

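Store-operated calcium entry is the route by which T cells take up calcium after their receptor is engaged, and 10 genes that encode its machinery were described here. They were the rows of the count tables whose gene ID, without version, carried in GENCODE mouse release 21 the symbols Orai1, Orai2, Orai3, Stim1, Stim2, Itpr1, Itpr2, Itpr3, Atp2a2 and Atp2a3, 10 of 50600 features. All 10 were found, and all passed the filter on low counts of the test between libraries. RNA was sequenced from primary regulatory T cells of C57BL/6NJ mice, a CD4+ subset that holds immune responses in check, in 4 libraries that the labels number as biological replicates 1 to 4 of 1 group. The labels name 1 donor for all 4, record no sex, age or stage, and link a protocol for CD4+ T cell differentiation, and the output names in the file headers hold the words activated and 24h. No treated, resting or control cells were part of the series, so each value below is a level in these cells or a spread between the 4 libraries. Nothing in the labels says whether the libraries came from separate animals or cultures, so a p-value measures only the spread between them. Part of that spread may be technical. The libraries also differed in sex-linked RNA, as given below, so they did not all come from 1 animal. Fewer cells with a transcript and less RNA per cell cannot be told apart in such bulk samples.

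As background, engagement of the T cell receptor activates phospholipase C gamma, whose product IP3 opens IP3 receptors (Itpr genes) and releases calcium from the endoplasmic reticulum. STIM proteins sense the emptied store from within the reticulum membrane, move to its contacts with the plasma membrane and open ORAI channels there. The calcium that enters through ORAI activates calcineurin and thereby NFAT, while SERCA pumps (Atp2a genes) refill the store. STIM1 and ORAI1 are the pair whose loss causes immunodeficiency in people, and regulatory T cells depend on STIM proteins for their development.

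Libraries held 38590127 to 93035969 fragments assigned to genes. Markers of the labelled cells were present: Foxp3, the transcription factor of the lineage, had 109 ± 14.5 TPM (SD, n = 4), Il2ra 702 ± 44.1 and Ctla4 245 ± 26.5, while Ikzf2, which encodes Helios, had 4.32 ± 0.788. TPM is the fragment count divided by gene length and scaled to a common library total. Of 21 markers of B cells, macrophages, platelets, neutrophils, CD8 and NK cells and red cells, 4 had a mean of at least 1 TPM and 0 of at least 10, and 10 had 0 fragments in all 4 libraries, among them Pf4 and Ppbp of platelets and Lyz2 of macrophages. The summed level of these lists was at most 4.55 TPM in any library, reached by the B cell list. Replicate 1 stood apart, with 35490.5 TPM of the rRNA-related feature Gm42418 against 1324 to 3197 in the others and 88.2% of TPM in protein-coding genes against 95.6 to 96.6%. Replicates 1 and 2 had the X inactivation RNA Xist at 100.4 and 88.7 TPM and almost none of the Y-linked gene Ddx3y (0.159 and 0.101), and replicates 3 and 4 had 0.716 and 0.603 TPM of Xist and 46.1 and 40.6 of Ddx3y. The first pattern is that of female cells and the second that of male cells. The labels name 1 donor, but with both patterns present the 4 libraries did not all come from 1 animal. All 10 calcium entry genes lie on autosomes.

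All 4 families of the machinery were expressed in every library. The SERCA pump gene Atp2a2 had the highest level and the channel gene Orai2 the lowest. All 10 genes had a mean of at least 1 TPM, which 47.7% of the 21764 protein-coding genes reached, and 9 had a mean of at least 10, which 36.2% reached. Orai2 was the exception, with a mean of 9.61 TPM, which became 10.2 with TPM taken over protein-coding genes and 10.08 without replicate 2. By mean level the order was Atp2a2, Atp2a3, Orai1, Stim2, Stim1, Itpr3, Orai3, Itpr1, Itpr2 and Orai2. The median of the 10 means was 30.4 TPM.

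**Figure D1:**
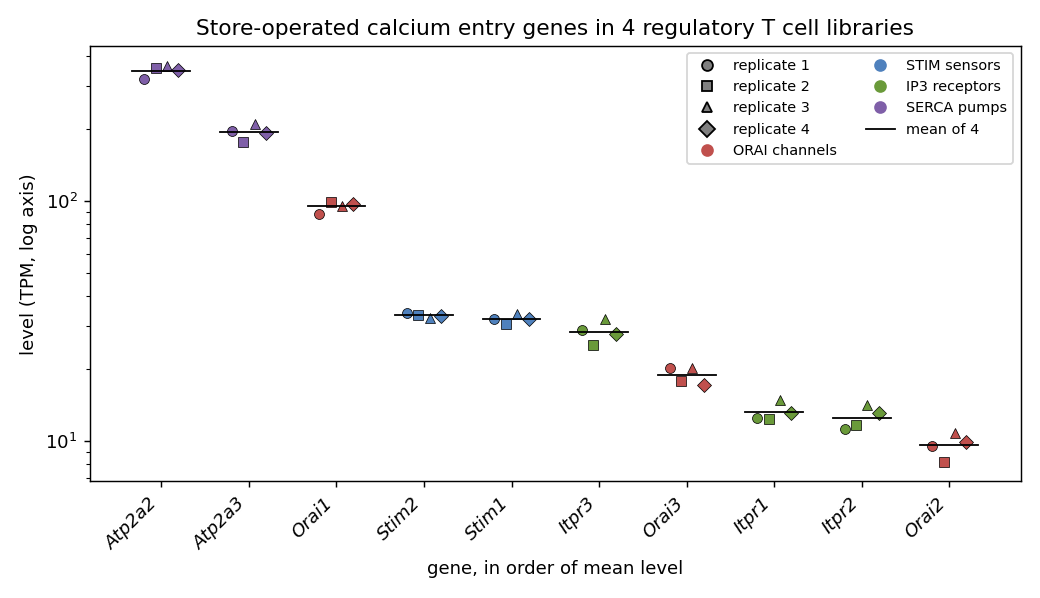
Level of each of the 10 genes (TPM, log axis) in the 4 regulatory T cell libraries, with symbols for replicates 1 to 4, colours for the families and a bar at the mean. The 4 points of Atp2a2 lie at 321 to 365 TPM and those of Orai2 at 8.19 to 10.8, and the points of Stim2 and Stim1 overlap.

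Neighbours in this order mostly kept it in every library. Of the 9 neighbouring pairs, 7 had the same gene higher in 4 of 4 libraries. The order was set by the means of these same 4 libraries, so neither this count nor the p-values below lend it independent support. Stim2 and Stim1 changed places in 1 library, with a mean difference smaller than its SD. Itpr1 and Itpr2 also changed places in 1 library, by a log2 difference of -0.0029, and their ranges overlapped. The ranges of Stim1 and Itpr3 over libraries also overlapped, although Stim1 was higher within each library, by 0.18 ± 0.09 on the scale of log2(TPM + 0.1), and by 1.52 and 2.13 with the principal transcript and coding lengths. Each within-library difference was compared with 0 by flipping the signs of the 4 library values in all 16 ways (exact permutation, two-sided). The smallest p this allows is 0.125, from 2 of the 16, so no difference can pass 0.05. Adjusted over the 9 pairs, that p became 0.161. The order depends on how gene length is measured, as given for each family. The other lengths changed the divisor only, and the counts stayed those over all exons. With the length of the principal transcript in place of all exons, Orai3 fell below Itpr1, with a difference of -0.28.

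The ORAI proteins form the pore in the plasma membrane. Orai1, the main channel of T cells (ENSMUSG00000049686.14, chr5:123015074-123030456, mm10, plus strand), was the most abundant of the 3. It had 88.1, 99.2, 95.4 and 97.4 TPM in replicates 1 to 4, a mean of 95.0 ± 4.88 (SD, n = 4). Replicate 1 was the lowest in TPM, whereas with edgeR's TMM scaling, in CPM (counts scaled by effective library size), replicate 3 was (63.2 against 64.4 in replicate 1), and 79.3% of the 10383 protein-coding genes with a mean of at least 1 TPM lay below Orai1. These values rest on 2445 to 6164 fragments, whose counting error is at most 2.02% of the value. Orai3, a channel that also joins Orai1 in mixed pores (ENSMUSG00000043964.14, chr7:127769815-127775150, plus strand), had 20.05, 17.7, 20.2 and 17.03 TPM in replicates 1 to 4. Its mean was 18.7 ± 1.62, and replicates 1 and 3 were higher than in replicates 2 and 4. Orai2, which tempers the current of Orai1 in mouse T cells (ENSMUSG00000039747.11, chr5:136147459-136170713, minus strand), had 9.49, 8.19, 10.8 and 9.93 TPM in replicates 1 to 4. Its mean was 9.61 ± 1.096. Replicate 3 alone exceeded 10 TPM, and the ranges of the 3 channel genes did not overlap.

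Within each library Orai1 exceeded Orai2 by 3.30 ± 0.20 and Orai3 by 2.34 ± 0.19 on the log2(TPM + 0.1) scale (SD, n = 4), in 4 of 4 libraries. Orai2 lay below Orai3 by a log2 difference of -0.96 ± 0.16, again in 4 of 4. The exact sign-flip permutation test gave p = 0.125 for each, the smallest it allows, and 0.167 adjusted over the 8 within-family pairs compared. Orai1 held 77.0 ± 2.15% of the summed TPM of the family, Orai3 15.2 ± 1.57% and Orai2 7.79 ± 0.866%. The place of Orai2 depends on length, since its exons cover 6077 bp, of which 792 bp are coding, against 2295 and 912 bp for Orai1 and 2141 and 870 bp for Orai3. With coding length Orai2 exceeded Orai3 by 0.67 and Orai1 exceeded Orai2 by 1.70, while the difference of Orai1 and Orai3 was 2.37. The counts divided by coding length were still those over all exons, so these are not levels per coding base. Orai1 was the highest of the family under all 3 lengths tried.

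The starts of the ORAI genes also differed in base composition, and up to 250 bases before each start are shown because the 3 genes differ most in level within a family. The sequences are those of RefSeq on GRCm38.p6, 5′ to 3′ on the strand of the gene, with each CG dinucleotide in capitals. The printed bases lie at chr5:123014824-123015073 for Orai1, chr5:136170714-136170906 for Orai2 and chr7:127769565-127769814 for Orai3, and for Orai2 the 57 bases inside the GENCODE gene were left out.
Orai1: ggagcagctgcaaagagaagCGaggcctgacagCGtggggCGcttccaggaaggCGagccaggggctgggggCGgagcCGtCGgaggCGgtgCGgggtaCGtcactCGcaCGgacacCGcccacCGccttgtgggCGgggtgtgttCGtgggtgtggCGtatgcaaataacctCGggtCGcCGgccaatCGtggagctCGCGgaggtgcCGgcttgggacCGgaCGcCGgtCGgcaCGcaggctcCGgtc
Orai2: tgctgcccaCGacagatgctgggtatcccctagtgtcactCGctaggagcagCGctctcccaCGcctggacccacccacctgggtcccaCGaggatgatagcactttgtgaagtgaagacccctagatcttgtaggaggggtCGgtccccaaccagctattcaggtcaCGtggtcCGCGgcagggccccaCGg
Orai3: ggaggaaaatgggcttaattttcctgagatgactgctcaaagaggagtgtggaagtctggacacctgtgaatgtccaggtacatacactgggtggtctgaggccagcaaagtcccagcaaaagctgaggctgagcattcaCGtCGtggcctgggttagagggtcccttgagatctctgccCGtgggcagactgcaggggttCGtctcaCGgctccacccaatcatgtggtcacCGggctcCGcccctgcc
In the full windows of 250 bases, Orai1 had 30 CG dinucleotides and 70.8% G and C, Orai2 17 and 63.6%, and Orai3 7 and 57.2%. Orai3 had the fewest CG dinucleotides and came second in level by exon and principal transcript length, and last by coding length. The median of 20095 windows of protein-coding genes was 10 CG dinucleotides and 56% G and C.

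Of the 10 genes, 8 matched an entry in the promoter table, and Itpr1 and Atp2a2 were not among them. Outside the ORAI family the count of CG dinucleotides was 31 for Stim1, 30 for Stim2, 25 for Itpr3, 22 for Itpr2 and 20 for Atp2a3. Orai3 was the only one of the 8 below the median of protein-coding genes. The motif GGGCGG, the GC box, read on both strands, occurred in 8 of the 8 windows and in 44.2% of the windows of protein-coding genes. The Stim1 window held 8 copies, of which 7 lay wholly before the GENCODE start. The motif GGAAA, the core recognised by NFAT, read on both strands, occurred in the windows of Orai2 and Orai3 and in 54.8% of those of protein-coding genes. For Orai2 the printed bases held 0 copies of either motif, since its 1 copy of each lay in the 57 bases left out. Copies of the motifs can overlap through shared G bases. A match is a description of these letters, and none of the data here bear on binding.

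Of the STIM sensors, Stim1 responds to strong store depletion and carries most of the entry in T cells, and Stim2 responds to small falls of the store. Their levels were close. Stim2 (ENSMUSG00000039156.19, chr5:53998499-54121057, plus strand) had 34.0, 33.5, 32.6 and 33.2 TPM in replicates 1 to 4, a mean of 33.3 ± 0.594 (SD, n = 4). In TPM it was the steadiest of the 10 genes, with a coefficient of variation of 1.78%. Counting error alone gives 2.18% for its shallowest library. With TMM scaling Stim2 had 55.6, 50.9, 48.3 and 50.7 CPM in replicates 1 to 4, while Atp2a2 had 622, 641, 641 and 635. The steadiness of Stim2 thus depends on the scaling. Stim1 (ENSMUSG00000030987.5, chr7:102267806-102437319, plus strand) had 32.2, 30.8, 33.9 and 32.2 TPM in replicates 1 to 4, a mean of 32.3 ± 1.26. The ranges overlapped, and Stim1 was the higher gene in replicate 3 alone. Stim1 minus Stim2 was -0.05 ± 0.08 on the log2(TPM + 0.1) scale, which 6 of 16 sign choices matched or passed (exact sign-flip permutation p = 0.375, adjusted p = 0.375). The 4 within-library differences ran from -0.12 to 0.06.

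This parity holds per base of all annotated exons and not under the other lengths. Stim1 had 4037 to 9211 fragments and Stim2 2109 to 4691, over exon lengths of 10371 and 5133 bp. The principal transcripts are 4085 and 4934 bp long, and with them Stim1 exceeded Stim2 by 1.24 ± 0.08, or 2.36 times, in 4 of 4 libraries. With coding length, 2379 and 2262 bp, the difference was 0.89 ± 0.08, or 1.86 times. The share of Stim1 in the family was 49.2 ± 1.32% by exon length, 70.3 ± 1.098% by principal transcript and 65.0 ± 1.196% by coding length. Which isoforms the cells use was not tested, as the tables give 1 count per gene.

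Summed over paralogs, ORAI channels had 118 to 126 TPM and STIM sensors 64.3 to 66.5 TPM. The ratio of the sums was 1.78, 1.94, 1.902 and 1.903 in replicates 1 to 4. Replicate 1 was the lowest, and ORAI RNA exceeded STIM RNA per exon length in every library. With principal transcript length the mean ratio was 1.299 and with coding length 1.66. Orai1 alone was 2.95 ± 0.218 times Stim1 by exon length, 1.42 ± 0.105 times by principal transcript and 1.70 ± 0.126 times by coding length. These are ratios of RNA and say nothing of the proteins.

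IP3 receptors are the release channels of the store, large proteins that assemble in groups of 4 subunits. All 3 genes were expressed, Itpr3 the highest by exon length. Itpr3 (ENSMUSG00000042644.8, chr17:27057304-27122223, plus strand), the paralog with the lowest affinity for IP3, had 29.0, 25.1, 32.0 and 28.0 TPM in replicates 1 to 4, a mean of 28.5 ± 2.88 (SD, n = 4). Replicate 2 was the lowest and replicate 3 the highest, a spread of 10.1% of the mean. Itpr1 (ENSMUSG00000030102.11, chr6:108213096-108551109, plus strand), the paralog best known from neurons, had 12.5, 12.3, 14.9 and 13.004 TPM in replicates 1 to 4. Itpr2 (ENSMUSG00000030287.15, chr6:146108299-146502223, minus strand), the paralog with the highest affinity, had 11.3, 11.6, 14.1 and 13.03 TPM. The means were 13.2 ± 1.16 for Itpr1 and 12.5 ± 1.31 for Itpr2. In TPM both were lower in replicates 1 and 2 than in replicates 3 and 4. With TMM scaling this did not hold for Itpr1, which had 72.9 CPM in replicate 1 and 70.9 in replicate 4. The TPM ranges of both overlapped each other but not that of Itpr3.

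Itpr1 minus Itpr2 was 0.08 ± 0.06 on the log2(TPM + 0.1) scale, above 0 in 3 of 4 libraries (exact sign-flip permutation p = 0.25, adjusted p = 0.286). Itpr1 lay below Itpr3 by -1.11 ± 0.08 and Itpr2 below Itpr3 by -1.19 ± 0.12, each in 4 of 4 libraries (exact p = 0.125, adjusted p = 0.167). The size of these 2 values depends on the length used. The exon lengths are 18319 bp for Itpr1, 14802 bp for Itpr2 and 8990 bp for Itpr3, whereas the coding lengths are 8247, 8103 and 8010 bp. With principal transcripts the differences from Itpr3 were -0.22 and -0.36, and with coding length -0.13 and -0.48. The sign was the same in 4 of 4 libraries under each length, and Itpr3 held 52.6 ± 1.69% of the family by exon length, 37.9 ± 1.596% by principal transcript and 38.1 ± 1.57% by coding length.

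SERCA pumps return calcium to the store. Atp2a2, the pump gene expressed in nearly all tissues, which encodes SERCA2 (ENSMUSG00000029467.15, chr5:122453513-122502225, minus strand), had 321, 356, 365 and 351 TPM in replicates 1 to 4, a mean of 348 ± 19.2 (SD, n = 4). Replicate 1 was the lowest, and 95.4% of the expressed protein-coding genes lay below the mean. Atp2a3, which encodes SERCA3, the form typical of blood cells (ENSMUSG00000020788.15, chr11:72961169-72993044, plus strand), had 195, 176, 208 and 191 TPM in replicates 1 to 4, a mean of 193 ± 13.5. The ranges of both genes lay far apart. Atp2a2 exceeded Atp2a3 by 0.86 ± 0.13 in log2(TPM + 0.1), or 1.81 times, in 4 of 4 libraries (exact sign-flip permutation p = 0.125, adjusted p = 0.167). Their exons and coding parts are of like length, and the ratio was 2.10 with principal transcripts and 2.07 with coding length. Pump RNA summed to 516 to 573 TPM and was 9.40 to 10.9 times the summed IP3 receptor RNA per exon length.

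**Figure D2:**
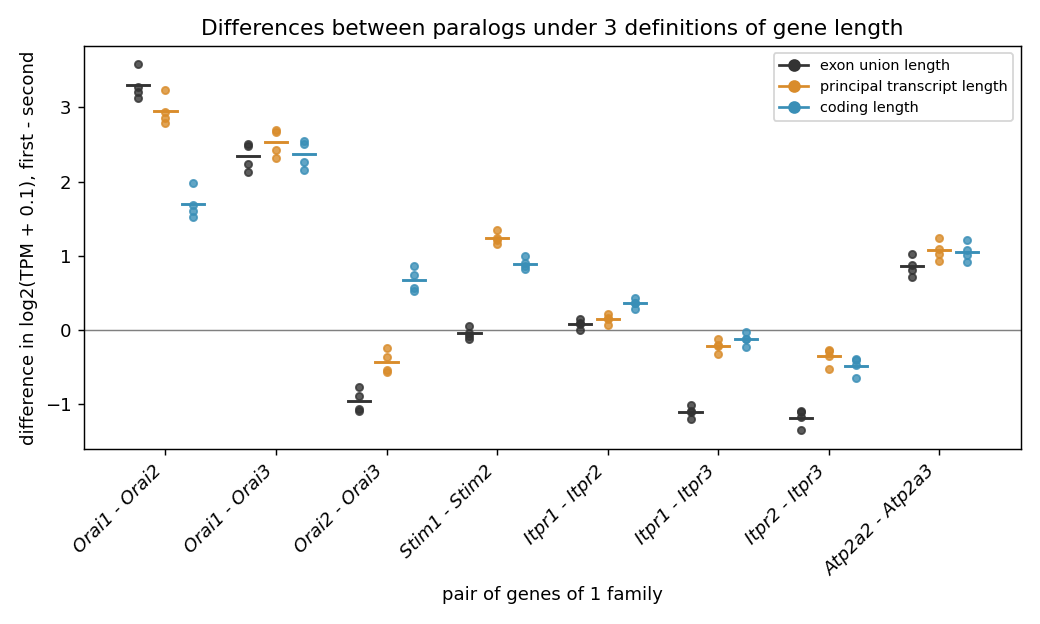
Difference in log2(TPM + 0.1) between genes of 1 family (first minus second), with 1 point per library and a bar at the mean, computed with exon union, principal transcript and coding length. Orai1 lies above Orai2 and Orai3 and Atp2a2 above Atp2a3 under all 3 lengths, whereas Stim1 minus Stim2 moves from -0.05 to 1.24 and 0.89 and Orai2 minus Orai3 from -0.96 to -0.43 and 0.67.

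**Figure D3:**
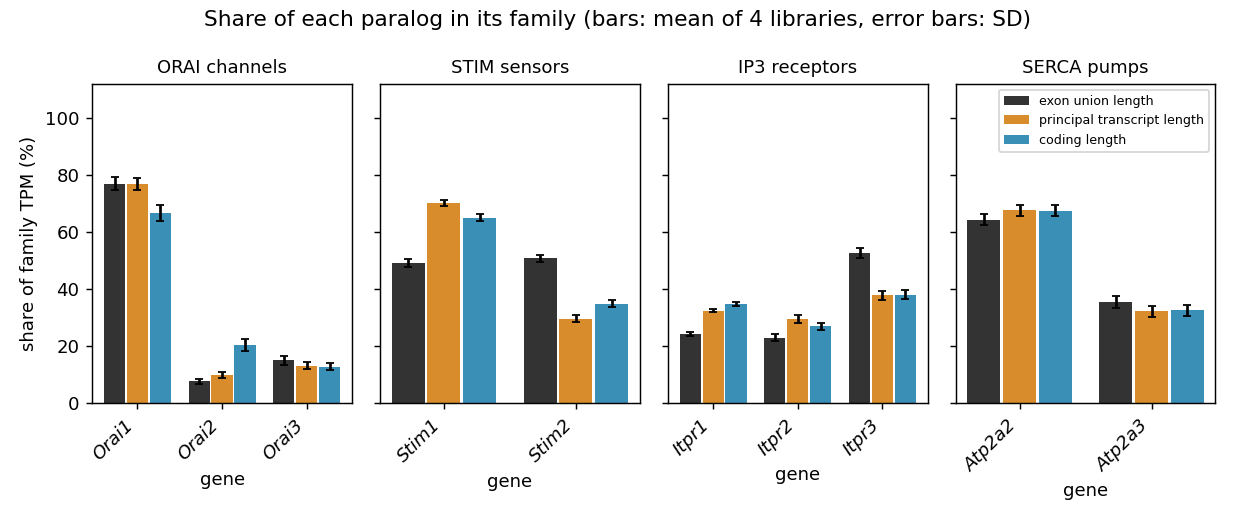
Share of each gene in the summed TPM of its family (%), as the mean of 4 libraries with SD, under the same 3 lengths. Orai1 holds 77.0, 76.8 and 66.6% of the ORAI family and Itpr3 falls from 52.6 to 37.9 and 38.1% of the IP3 receptors.

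In TPM the genes of the machinery varied between libraries about as much as other expressed genes. The coefficient of variation of TPM ran from 1.78% for Stim2 to 11.4% for Orai2, with a median of 7.82% over the 10 genes against 8.096% over the 10383 expressed protein-coding genes. It was not computed with TMM scaling, where replicate 1 was highest for 28.2% of 10326 genes, against 10.1% of the 10383 in TPM. A test built on edgeR's quasi-likelihood fit asked which genes vary beyond others of like abundance. It called 58 of 12396 genes at a Benjamini-Hochberg adjusted p of 0.05, or 0.468%, and 661 had an unadjusted p under 0.05. Of the 10 genes 0 were called, 0 had an unadjusted p under 0.05, and 0 were among the 69 dispersion outliers of DESeq2. With a background of 0.468%, a count of 0 among 10 genes does not set them apart. The closest was Itpr3, with an unadjusted p of 0.0599 and an adjusted p of 0.94 in edgeR, and the other 9 had adjusted p-values of 0.985 to 0.997.

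In TPM, 8 of the 10 genes, all but Orai1 and Stim2, had their highest value in replicate 3. This was so for 39.8% of the 10383 expressed protein-coding genes. Scaled instead by edgeR's TMM factors, 5 of 10 genes were highest in replicate 3, against 23.0% of 10326 genes. Orai2, Itpr1, Itpr2, Itpr3 and Atp2a2 were highest there under both scalings, though Itpr3 and Atp2a2 were near ties under TMM. For Itpr3 the lead over replicate 1 was 83.2 against 83.1 CPM. For Atp2a2 the lead over replicate 2 was 641.17 against 641.13 CPM.

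The rest of the calcium pathway was described with 10 lists of 132 genes, of which 131 were measured. Of these, 80 had a mean of at least 1 TPM and 60 of at least 10, which 47.7% and 36.2% of all protein-coding genes reached. The median was 6.47 TPM against 0.52 for all protein-coding genes. Among regulators of store-operated entry 5 of 10 reached 10 TPM. Esyt1, a tether between reticulum and plasma membrane, had 205 ± 14.7 TPM (SD, n = 4), Saraf, which inactivates the channel, 132 ± 4.54 and Slc35g1, a STIM1 partner, 52.2 ± 3.94, and Efhb had 0 fragments. Of 14 genes that make or remove IP3, 5 reached 10 TPM. Plcg1, the phospholipase C downstream of the T cell receptor, led with 93.1 ± 6.39 TPM, followed by the IP3 kinase Itpkb at 32.7 ± 3.03 and Plcb3 at 20.9 ± 1.16, and Plcb1 had 0 fragments.

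Partners of the IP3 receptors included 7 of 11 genes with at least 10 TPM. Lrmp, a lymphoid protein of the reticulum membrane that binds IP3 receptors, had 237 ± 7.73 TPM, between Atp2a3 and Atp2a2 in level. Ahcyl1, which competes with IP3 for its site, had 68.9 ± 4.52 and Itpripl1 57.4 ± 4.098, and Mrvi1 was the lowest at 0.197 ± 0.148. Itpripl2, named after its values were seen, came nearest to varying between libraries of the 84 pathway genes tested. It had 3.35, 2.60, 5.77 and 5.75 TPM in replicates 1 to 4, so that replicates 1 and 2 lay below replicates 3 and 4. These pairs also differed in Xist and Ddx3y, so sex cannot be told apart from other differences between them. In the edgeR-based test, which did not model these pairs, Itpripl2 missed the threshold in the main setting (adjusted p = 0.0518) and without the robust prior (0.185). It also missed it without replicate 2, 3 or 4 (0.413, 0.152 and 0.166). It passed with RLE scaling, the size factor method of DESeq2 (adjusted p = 0.043), without the filter (0.000891) and without replicate 1 (0.0118). In the main setting none of the 84 was called. With 0.468% of 12396 genes called, a count of 0 among 84 does not set them apart.

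Most genes of other routes for calcium across membranes lay below 10 TPM, as did most protein-coding genes, of which 36.2% reached it. Ryanodine receptors, the release channels of muscle, had a mean of at most 0.138 TPM, and of the 8 genes of other store channels Tmco1, a leak channel, led with 36.1 ± 3.35, followed by the lysosomal channels Tpcn1 (10.8 ± 0.511) and Mcoln1 (9.34 ± 0.36), and Ryr3 had 0 fragments. Of 26 TRP, voltage-gated and mechanosensitive channel genes, 5 reached 10 TPM and 8 had 0 fragments in all 4 libraries, Cacna1i among them. Of all 21764 protein-coding genes, 7868 reached 10 TPM and 7747 had 0 fragments. The mechanosensitive channel Piezo1 led the 26 with 104 ± 5.83 TPM, near the level of Orai1, then Trpm7 with 39.9 ± 3.61 and Trpv2 with 39.3 ± 3.14. Of 13 other pumps, exchangers and pump regulators, 3 reached 10 TPM: the Golgi pump Atp2c1 at 30.6 ± 2.68 and the plasma membrane pumps Atp2b4 at 17.5 ± 0.841 and Atp2b1 at 14.6 ± 0.984. Sln and Pln, small proteins that restrain SERCA in muscle, had 0 fragments, which allows 0.0322 to 0.0777 CPM, the worth of 3 fragments in each library. Among potassium channels that keep the membrane potential negative during entry, Kcnn4 had 99.97 ± 3.599 TPM, Kcnk5 24.4 ± 1.78 and Kcna3 6.47 ± 0.518, and Kcnk9 had 0 fragments.

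The highest list medians were those of the reticulum buffers, 196 TPM, and of mitochondrial uptake, 41.9 TPM, and the list of calmodulin, calcineurin and their kinases had a median of 16.8 TPM. Of 11 calcium-binding proteins of the reticulum 9 reached 10 TPM, with Calr, the main calcium buffer of the store, at 1115 ± 51.2 TPM, Pdia3 at 599 ± 44.3, the chaperone Hspa5 at 589 ± 38.7 and Rcn3 lowest at 1.402 ± 0.776. Of 21 genes of calmodulin, calcineurin and their kinases 13 reached 10 TPM, among them the calmodulin genes Calm2 (464 ± 45.3) and Calm3 (342 ± 24.6). Rcan2 of this list had 0 fragments. All 12 genes of mitochondrial uptake reached 1 TPM and 9 reached 10. The outer membrane channels Vdac1 and Vdac2 had 444 ± 31.99 and 238 ± 19.7 TPM, the uniporter subunit gene Smdt1 181 ± 3.25, with 22.7% of its exon length shared with Pheta2, and Micu3 was the lowest at 1.82 ± 0.243.

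**Figure D4:**
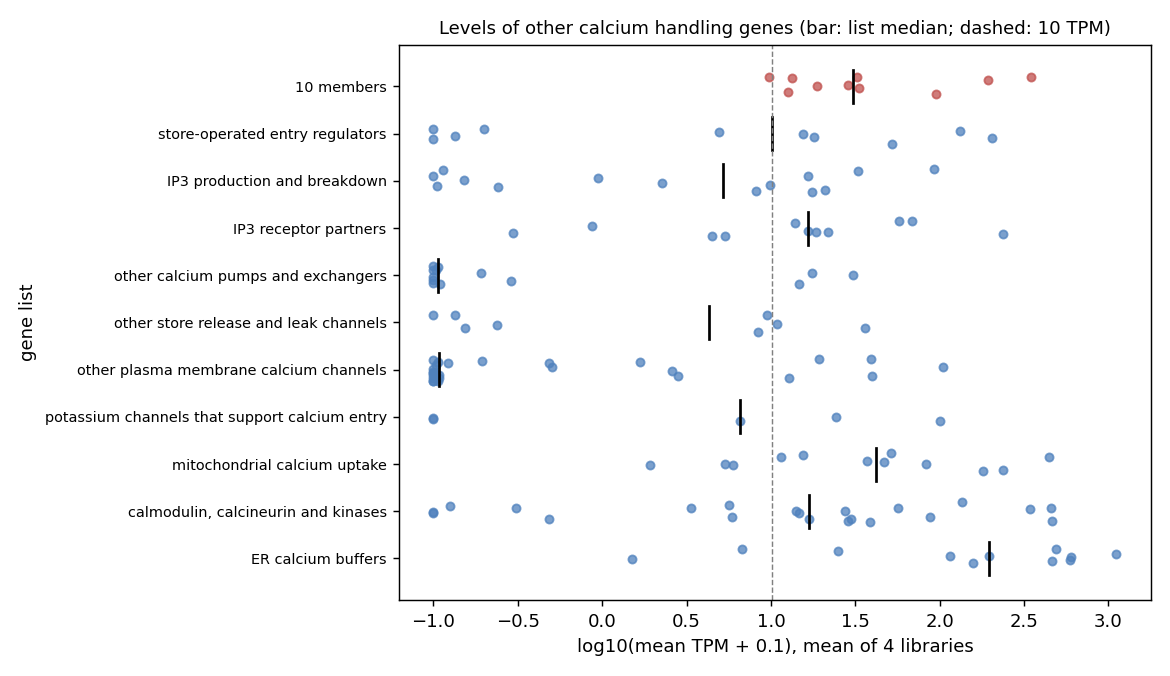
Mean level of each gene over 4 libraries on a log10(TPM + 0.1) axis, for the 10 genes of the machinery and the 10 lists of other calcium genes, with a bar at each list median and a dashed line at 10 TPM. The 10 genes lie near or right of the line, genes of reticulum buffers reach 1115 TPM, and the lists of other plasma membrane channels and of other pumps have medians under 0.01 TPM.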

How the data were processed

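Per the file headers, the authors counted fragments per gene with featureCounts 1.4.6-p4 over exons of GENCODE mouse release 13, with both ends mapped and strand setting 2, and the deposited values are raw counts. The build is mm10 per the labels; for the aligner, the name was not given in the sources used here. No option to count fragments with several map positions, or over more than 1 gene, was set per the file headers. The deposited Length column, which equals the union of exons, gave TPM from the counts. Alternative lengths came from GENCODE release 21 and replaced the divisor only, so noncoding exon parts still counted under coding length.

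Names matched for 50376 of 50600 IDs. Differences were taken within libraries in log2(TPM + 0.1) and tested by exact two-sided sign-flip permutation. For variable genes edgeR 4.0.16 (R 4.3.3) was run after filterByExpr with TMM scaling (intercept only, robust prior). Its fit gave each gene's quasi-likelihood dispersion over the prior. This ratio was tested separately (upper tail of F, largest prior degrees of freedom for all genes, Benjamini-Hochberg over 12396 genes at 0.05). In simulated counts with genes raised in 1 library, the test recovered 8 of 50 at 1.5 times, 39 of 50 at 2 times and 50 of 50 at 4 times. It made 4 false calls there, and most changes of 1.5 times there were missed. Whether these rates hold for the deposited counts, in which dispersion differs from gene to gene, was not tested. DESeq2 1.42.0 gave an alternative. The genes described and the lists were chosen with earlier results of these data known. Named list genes are the 3 highest and the lowest. A gene that this rule names is not reported here. No gene was named for a likeness of pattern, as 4 libraries are too few. Intervals and floors of 3 fragments cover counting error only.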

Additional observations from a re-analysis of the deposited data

Results flagged for a closer look

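In 52 sets of 4 library values, 3 had 1 library far from the other 3, and chance flags about 1 set in 20. Kcna3 had 5.70 TPM in replicate 4 against 6.67 to 6.83 in the others. Smdt1 had 186 TPM (185.891) in replicate 4 against 179.2 to 179.5. Calm2 had 396 TPM in replicate 1 against 480.0 to 495. These flags depend on TPM, in which protein-coding genes made up 88.2% in replicate 1 and 95.6 to 96.6% in the others. Whether the flags hold with TPM over protein-coding genes was not tested. No level, sum or within-family difference of the 10 store-operated entry genes met this criterion.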

How the results depend on the processing

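Direction depended on gene length for 2 of the 8 within-family differences. Stim1 minus Stim2 was -0.05 as reported, 1.24 with principal transcript length and 0.89 with coding length. Orai2 minus Orai3 was -0.96 as reported and 0.67 with coding length. In the order of levels the reversed differences were Stim2 minus Stim1 (-1.24 and -0.89 with those 2 lengths), Itpr3 minus Orai3 (-0.52, coding), Orai3 minus Itpr1 (-0.28, principal transcript) and Itpr2 minus Orai2 (-1.68, coding). These 2 lengths, and TMM scaling of single libraries, were added after seeing the data. The 8 within-family differences kept their sign with pseudocounts of 1 and 0.01, with TPM over protein-coding genes, without shared bases and without each replicate in turn. The count of variable genes, 58 as reported, was 110 without the filter, 36 without the robust prior and 37 to 69 with 1 replicate left out, the lowest without replicate 1, where 31 of the 37 were among the 58. Pathway genes among them numbered 0 as reported, 1 with RLE scaling and 1 without the filter. They numbered 1 among DESeq2 outliers and 0 to 1 with 1 replicate left out, and the 1 was Itpripl2 each time. Genes highest in replicate 3 numbered 8 in TPM and 5 under TMM, where the leads of Itpr3 and Atp2a2 were slight. The cause of these changes beyond length and scaling was not tested. Leaving out a replicate moved no level, share or list median by more than its SD. Taking list medians over genes that pass the filter on low counts, which removes low genes, moved 8 of 10, among them other pumps from 0.00584 to 17.5 TPM, other plasma membrane channels from 0.00785 to 15.98 and entry regulators from 10.1 to 35.0. TPM over protein-coding genes moved 4 of the 10 levels and 2 list medians by more than their SD. Orai1 over Stim1 was 2.95 as reported and 1.42 and 1.70 with the other lengths. Coding length from a RefSeq protein table was not run, as no such table was used here. No paired analysis was possible because there is 1 group. Counting error at the lowest count of the 10 genes, 503 fragments of Orai3, is 4.46%, and 4 libraries limit every test.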

Other observations

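Of the 10 genes, 4 lie on chromosome 5, 2 on chromosome 6, 2 on chromosome 7 and 1 each on chromosomes 11 and 17. Atp2a2 and Orai1, the most abundant pump and channel genes, are 513 kb apart on chromosome 5, and the next closest pair, Orai1 and Orai2, is 13117 kb apart. The genes span 5.34 kb (Orai3) to 394 kb (Itpr2) of genome.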
